A study of Mus musculus with 30 samples.

Results

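Zinc finger protein mRNAs whose symbols begin with Zfp and a digit were followed in RNA sequencing libraries of mouse sciatic nerve axoplasm, the cytoplasm extracted from the nerve. The members were all transcripts with such a symbol in the 12-library table of PTBP1 immunoprecipitations, and the same transcripts were looked up in the tables of input and nucleolin libraries. There were 259 of them among 15041 transcripts of that table, and 20440 transcripts appeared in any table. They carried 221 gene symbols, and 27 symbols had 2 or more transcripts. The input table held 228 members, both nucleolin tables held 210, and all 4 tables held 205. By annotation 225 were protein-coding, 15 were retained introns, 10 were processed transcripts, 6 were targets of nonsense-mediated decay, 2 were transcribed pseudogenes and 1 was antisense. The antisense RNA is listed as Zfp532 but annotated under another symbol, as are both forms of Zfp191 (annotated as Zfp24) and Zfp607 (Zfp607a).

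Nerves were naive or were taken 7 days after a crush, and each library came from 10 pooled nerves. For each condition the groups were input RNA, a nucleolin pulldown (IP), a nucleolin pulldown with the antibody first incubated with its blocking peptide (blocked IP), a PTBP1 IP and a PTBP1 blocked IP. That gave 10 groups of 3 libraries, 30 in all, described as biological repeats. Input was a part of the same material, so inputs and pulldowns share nerves. The labels do not give the strain, age or sex of the mice, and they name no transgene. The extract comes from the whole nerve, so RNA of axons and of other nerve cells cannot be told apart by preparation alone.

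Most Zfp genes encode transcription factors with arrays of C2H2 fingers, in which a pair of cysteines and a pair of histidines hold a zinc ion and each finger reads a few bases of DNA. Many also carry a KRAB domain, which recruits Trim28 and Setdb1 to silence transposable elements and some imprinted genes. A few have other roles: Zfp36, Zfp36l1 and Zfp36l2 have CCCH fingers that bind AU-rich mRNA and bring in deadenylases, and Zfp346 binds double-stranded RNA. Their mRNAs are generally scarce, and many KRAB genes stand in tandem clusters of similar copies, which bears on how reads are assigned to them.

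The sequence that defines the family is the finger repeat with its linker to the next finger. It is shown for 7 protein-coding members of the chromosome 17 clusters that were lower in injured input, because their likeness sets how well short reads can separate them. Each line is the first finger of the coding sequence that is followed by a complete linker, from its first cysteine codon, in GRCm38 transcripts of the GENCODE annotation. Capitals mark the 5 linker codons (15 bases).
Zfp943: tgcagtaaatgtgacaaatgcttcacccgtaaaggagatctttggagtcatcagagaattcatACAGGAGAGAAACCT
Zfp51: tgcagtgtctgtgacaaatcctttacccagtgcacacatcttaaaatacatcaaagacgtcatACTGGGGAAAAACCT
Zfp40: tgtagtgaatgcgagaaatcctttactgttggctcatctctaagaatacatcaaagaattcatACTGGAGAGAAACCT
Zfp820: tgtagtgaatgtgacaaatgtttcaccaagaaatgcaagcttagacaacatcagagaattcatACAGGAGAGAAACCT
Zfp948: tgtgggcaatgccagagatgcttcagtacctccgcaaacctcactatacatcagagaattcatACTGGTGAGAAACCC
Zfp944: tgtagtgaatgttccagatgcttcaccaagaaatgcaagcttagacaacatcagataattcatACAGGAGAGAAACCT
Zfp942: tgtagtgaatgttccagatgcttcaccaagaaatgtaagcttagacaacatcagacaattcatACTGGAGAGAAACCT
The 7 genes lie at chr17:21962552-21994366 (Zfp943, plus strand), chr17:21450374-21465587 (Zfp51, plus), chr17:23173869-23193252 (Zfp40, minus), chr17:21816885-21845759 (Zfp820, minus), chr17:21567008-21588699 (Zfp948, plus), chr17:22337989-22361400 (Zfp944, minus) and chr17:21926960-21962451 (Zfp942, minus). Over the 21 pairs, the 78 bases were 61.5% to 96.2% identical, with a median of 69.2%. Zfp944 and Zfp942 shared 75 of 78 bases. Across whole transcripts the overlap was smaller: 10.4% of the 50-base words of Zfp944 and 8.99% of those of Zfp942 occurred in a transcript of another gene, against 3.97% for Zfp943 and 2.85% for Zfp51.

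Over all members, 122 had no 50-base word in common with another gene, 36 had more than 10% of such words in common and 6 more than 50%. Counts of those 36 are uncertain, since the labels do not say how shared reads were assigned. Coding sequences were annotated for 231 members. Their translations held a median of 9 C2H2 fingers (interquartile range 4 to 13, maximum 33), 98 held 11 or more, and 26 held none. Zfp transcripts were longer than the other listed transcripts, with a median of 3391 against 2301 bases, and poorer in G and C, with 45.3% against 49.1%. The letters TCTT, which occur in PTBP1-type sites, stood at a median of 5.10 per kb of transcript against 5.05 elsewhere, and CTCTCT at 0.30 against 0.28. GGGG, a letter run of G-rich sites, was less frequent, at 2.73 against 3.57 per kb. Members were most numerous on chromosome 7 (54), followed by 17 (34), 13 (24), and 5 and 8 (19 each).

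Which members could be seen depended on the tables. A transcript is in the PTBP1 and nucleolin tables only if it reached 5 counts in all 3 libraries of some group, and in the input table only if it did so in injured inputs 2 and 3, so a Zfp mRNA lost after injury would not be listed in input. Of the 259 members, 31 were not in the input table. Conversely, 59 Zfp-named transcripts of the input table were not in the PTBP1 table, so they are not members. Totals over the listed transcripts were 13895675 to 18391743 counts for the naive inputs, and 7536033, 12227391 and 13346459 for injured inputs 1, 2 and 3. PTBP1 libraries held 8409056 to 22919174 counts. Injured input 1 was the shallowest library, and 11 of 228 members had no count there, against at most 1 in any other input. All Zfp transcripts together took 0.632% ± 0.0355 (SD, n = 3) of naive and 0.471% ± 0.172 of injured input counts, a difference within the spread (two-sided exact permutation p = 0.3, smallest possible 0.1).

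The Zfp members were scarce per length, as were most transcripts listed in input. In counts per 1000000 library counts (CPM) per kb of transcript, averaged over the 6 inputs, their median level was 3.84 (interquartile range 1.74 to 7.35), against 3.33 (1.03 to 12.6) for all listed transcripts. The medians are not like for like, because members had also to be listed for PTBP1 and the other transcripts did not. What the Zfp members lacked was an abundant tail: the highest member stood at 95.7 and the highest transcript of all at 90213 CPM per kb. Zfp706, which encodes a very short protein with a single finger, led with 142 ± 14.4 CPM per kb in naive and 49.7 ± 8.96 in injured input (SD, n = 3). Zfp36l1 came next with 68.6 ± 21.4 and 82.0 ± 13.6, a difference within the spread. Zfp560 in a short form of 608 bases, Zfp36, Zfp91, Zfp536, Zfp330, Zfp830, Zfp191 and Zfp943 completed the 10 highest, at means of 67.0, 48.8, 36.5, 30.5, 28.7, 27.3, 21.6 and 20.8 CPM per kb. Zfp330, Zfp830 and Zfp191 did not differ between conditions beyond their spread, with 28.5 ± 4.66 and 28.9 ± 10.9 for Zfp330, 22.9 ± 4.43 and 31.8 ± 7.07 for Zfp830, and 21.6 ± 4.39 and 21.6 ± 4.398 for Zfp191. Members of the 10 thus lay on both sides: Zfp36 and Zfp91 rose after injury, while Zfp706, Zfp560, Zfp536 and Zfp943 fell.

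The first comparison asks how the nerve's own Zfp mRNAs changed 7 days after crush. Of 226 members tested in input, 11 rose and 30 fell (edgeR quasi-likelihood test, threshold 0.05 after Benjamini-Hochberg adjustment over all 14095 transcripts). Among all transcripts, 14.5% rose and 13.4% fell, 27.8% in all. The share of Zfp transcripts that fell, 13.3%, was near this background, while the share that rose, 4.87%, was below it. Members had also to be listed for PTBP1, which the background did not, and 59 Zfp-named transcripts of input are left out for that reason. Among 7937 other transcripts of similar CPM, 1100 (13.9%) rose and 1073 (13.5%) fell, with a median log2 difference of -0.05. The Zfp median was -0.21, the quartiles were -0.87 and 0.34, and 96 of 226 (42.5%) were above 0. Injured and naive libraries did not overlap for 28 higher members (12.4%, background 22.5%) and 57 lower members (25.2%, background 21.9%). These shares depend on scaling: with library totals in place of TMM factors the median of all transcripts moved to -0.26, that of Zfp transcripts to -0.45, and 17 members fell (7.52%) while 0 rose, where 10.5% of all transcripts fell and 6.002% rose.

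**Figure D1:**
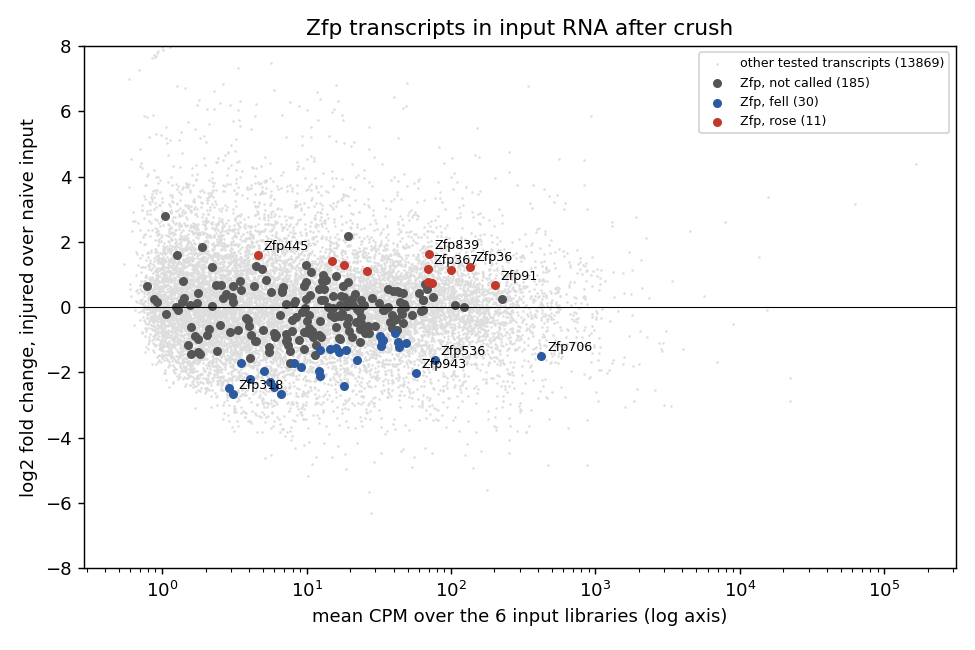
Log2 difference between injured and naive input (y axis) against mean input CPM on a log axis (x axis) for every tested transcript, with Zfp transcripts in colour by the outcome of the test. The 30 that fell and 11 that rose lie over much of the range of Zfp levels, but the scarcest members were not called. In addition, 13 transcripts beyond the y axis are not drawn.

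Among members that rose, Zfp36 encodes tristetraprolin, which shortens the life of cytokine mRNAs. Its transcript lies at chr7:28376784-28380253, minus strand, in 2 exons. It stood at 57.8, 94.2 and 91.4 CPM in naive inputs 1, 2 and 3 and at 219, 222 and 132 in injured ones. Every injured library was above every naive one, and the log2 difference was 1.23 (SE 0.28, adjusted p = 0.00572). The related Zfp36l1 and Zfp36l2 did not pass the test, at 0.26 (adjusted p = 0.506) and 0.16 (adjusted p = 0.781). With library totals Zfp36 kept its direction at 0.89, with an adjusted p of 0.191.

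Zfp839 had the largest rise, from 48.2, 28.9 and 25.9 to 184, 71.3 and 64.9 CPM (log2 1.63, SE 0.40, adjusted p = 0.00954; chr12:110850279-110869996, plus strand, 8 exons). On the TMM scale injured input 1 was far above the other injured libraries, and without it the difference was 0.90 with an adjusted p of 0.059. The TMM factor of injured input 1 was 0.537, against 1.01 and 1.27 for injured inputs 2 and 3. A low factor raises the CPM of every transcript in its library, so the height of that library depends on the scaling. Zfp451, a SUMO ligase, was even across libraries: it went from 70.1, 64.5 and 54.1 to 151, 123 and 141 CPM (1.14, SE 0.23, adjusted p = 0.00275). Its call held when any single input was left out, though not with library totals (0.85, adjusted p = 0.215).

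Zfp346, the double-stranded RNA binder, rose from 10.9, 12.6 and 7.83 to 26.0, 32.0 and 19.6 CPM (1.30, SE 0.36, adjusted p = 0.0175). Zfp445, a KRAB factor that keeps imprinted DNA methylated, was scarce and rose from 3.02, 1.67 and 2.15 to 7.66, 7.75 and 5.31 CPM (1.59, SE 0.53, adjusted p = 0.0396). The groups did not overlap for either member. The Zfp346 call was lost without injured input 2 (1.07, adjusted p = 0.098) or naive input 3 (1.12, adjusted p = 0.062), and the Zfp445 call without injured input 1 or 2 or naive input 2 or 3 (adjusted p 0.072 to 0.180).

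Zfp367 went from 47.6, 42.5 and 37.7 to 140, 81.0 and 66.5 CPM (1.17, SE 0.30, adjusted p = 0.0112). Here too injured input 1 was highest on the TMM scale, with its low factor. Without that library the difference was 0.71 (adjusted p = 0.062), and without naive input 2 it was 1.15 (adjusted p = 0.051). Zfp91, a ubiquitin ligase that acts in noncanonical NF-kappaB signalling, went from 159, 150 and 160 to 285, 251 and 207 CPM, the smallest rise (0.66, SE 0.21, adjusted p = 0.0348). Zfp354c, Zfp322a, Zfp768 and Zfp954 rose by log2 0.74, 0.77, 1.11 and 1.42. For Zfp91, Zfp354c, Zfp322a and Zfp768 the calls were lost when any of 5 of the 6 inputs was left out (all but naive input 3 for Zfp354c, naive input 1 for Zfp322a, and injured input 3 for Zfp91 and Zfp768). For Zfp954 the call was lost without injured input 2, naive input 1 or naive input 3. The signs were kept in all these cases.

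The 250 bases before the RefSeq start of Zfp367 (chr13:64153200-64153449, minus strand, GRCm38.p6) are printed because this member rose and its window holds the rare E2F-type letters TTTCGCGC. They are set beside those of Zfp943 (chr17:21962309-21962558, plus strand), the member of the finger set with the smallest p among those that fell. Capitals mark the motif letters or their reverse complement.
Zfp367 promoter: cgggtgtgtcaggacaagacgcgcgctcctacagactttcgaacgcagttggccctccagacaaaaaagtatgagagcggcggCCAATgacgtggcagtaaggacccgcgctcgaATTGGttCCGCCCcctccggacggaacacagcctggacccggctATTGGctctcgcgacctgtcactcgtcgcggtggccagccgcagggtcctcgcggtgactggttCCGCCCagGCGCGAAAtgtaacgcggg
Zfp943 promoter: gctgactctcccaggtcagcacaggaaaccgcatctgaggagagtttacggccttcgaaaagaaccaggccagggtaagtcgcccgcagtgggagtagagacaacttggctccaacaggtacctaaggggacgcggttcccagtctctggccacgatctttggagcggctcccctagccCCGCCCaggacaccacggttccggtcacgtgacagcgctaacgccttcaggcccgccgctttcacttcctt
In Zfp367 the letters TTTCGCGC lay 19 bases before the start on the minus strand, GGGCGG (Sp1 and KLF type) 128 and 27 bases before it, and CCAAT 167, 135 and 91 bases before it. Zfp943 had a single GGGCGG, 71 bases before the start. The motifs searched on both strands in windows of this length were the serum response element, the NRF1 site, TTTGGCGC, TTTCGCGC, TGACGTCA, CCGGAAGT, AAGATGGC, the AP-1 letters TGANTCA, the Sp1 letters GGGCGG, the CCAAT box and the TATA box letters TATAAA. No matches in the printed windows overlapped. RefSeq windows were found for 204 members, 176 of them distinct. GGGCGG stood in 45.5% of the Zfp windows and 33.0% of all 32536, CCAAT in 48.9% and 33.8%, CCGGAAGT (ETS type) in 8.52% and 2.90%, the NRF1 site in 3.98% and 0.784%, and TATAAA in 6.25% and 12.3%. TTTCGCGC stood in 1 Zfp window, that of Zfp367, and in 0.258% of all. GGGCGG was in 8 of 10 windows of members that rose and 9 of 19 of those that fell. A match describes the letters and is not evidence of binding.

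Among members that fell, Zfp706 was the most abundant. It went from 553, 656 and 669 to 184, 211 and 262 CPM, with the injured libraries far below the naive ones (log2 -1.51, SE 0.22, adjusted p = 0.000412; chr15:36997027-37007402, minus strand, 4 exons). Zfp943 went from 103, 81.9 and 89.9 to 15.8, 18 and 32.7 CPM (-2.03, SE 0.31, adjusted p = 0.000502). Zfp51 went from 47.6, 24.3 and 19.4 to 3.96, 5.33 and 7.43 CPM (-2.42, SE 0.44, adjusted p = 0.00156). Zfp536, which represses neuronal differentiation genes, went from 98.5, 110 and 143 to 49.4, 19.4 and 45.0 CPM (-1.63, SE 0.34, adjusted p = 0.00337). These 4 calls held under every alternative tried for them, library totals and each left-out library included.

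The largest fall was in the 5503-base protein-coding form of Zfp532, from 10.0, 8.78 and 14.7 to 0.494, 1.29 and 3.07 CPM (-2.67, SE 0.61, adjusted p = 0.00637). Other sense forms of Zfp532 tested in input were scarce and did not fall. A 358-base protein-coding form differed by 0.27 (adjusted p = 0.843) and the decay-target form by 2.80 (adjusted p = 0.064). The antisense RNA listed under the same symbol fell by 2.48 on the log2 scale, and reads of overlapping opposite strands cannot be told apart unless strand was counted. Its call was lost without naive input 2 (adjusted p = 0.058). Zfp277, Zfp612, Zfp808, Zfp248 and Zfp125 fell by 2.44, 2.28, 2.21, 2.12 and 1.97 on the log2 scale. Of these, Zfp808 shared 46.4% of its 50-base words with other genes, and 3 of the 41 called members shared over 10%. The Zfp125 call was lost without injured input 2 or naive input 2, the Zfp612 call without injured input 2 or naive input 1, and the Zfp808 call without injured input 1 or 2 or naive input 1 or 2 (adjusted p 0.051 to 0.146). The short Zfp560 form fell by 0.79 on the log2 scale (adjusted p = 0.0484), a call lost with library totals and when any input but naive input 1 was left out. Zfp521, which holds mesenchymal progenitors back from the adipocyte fate, fell from 35.3, 48.0 and 40.8 to 19.3, 23.6 and 24.5 CPM (-0.88, SE 0.28, adjusted p = 0.0351). Its call was lost with library totals (adjusted p = 0.129) and without injured input 2, naive input 2 or naive input 3.

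**Figure D2:**
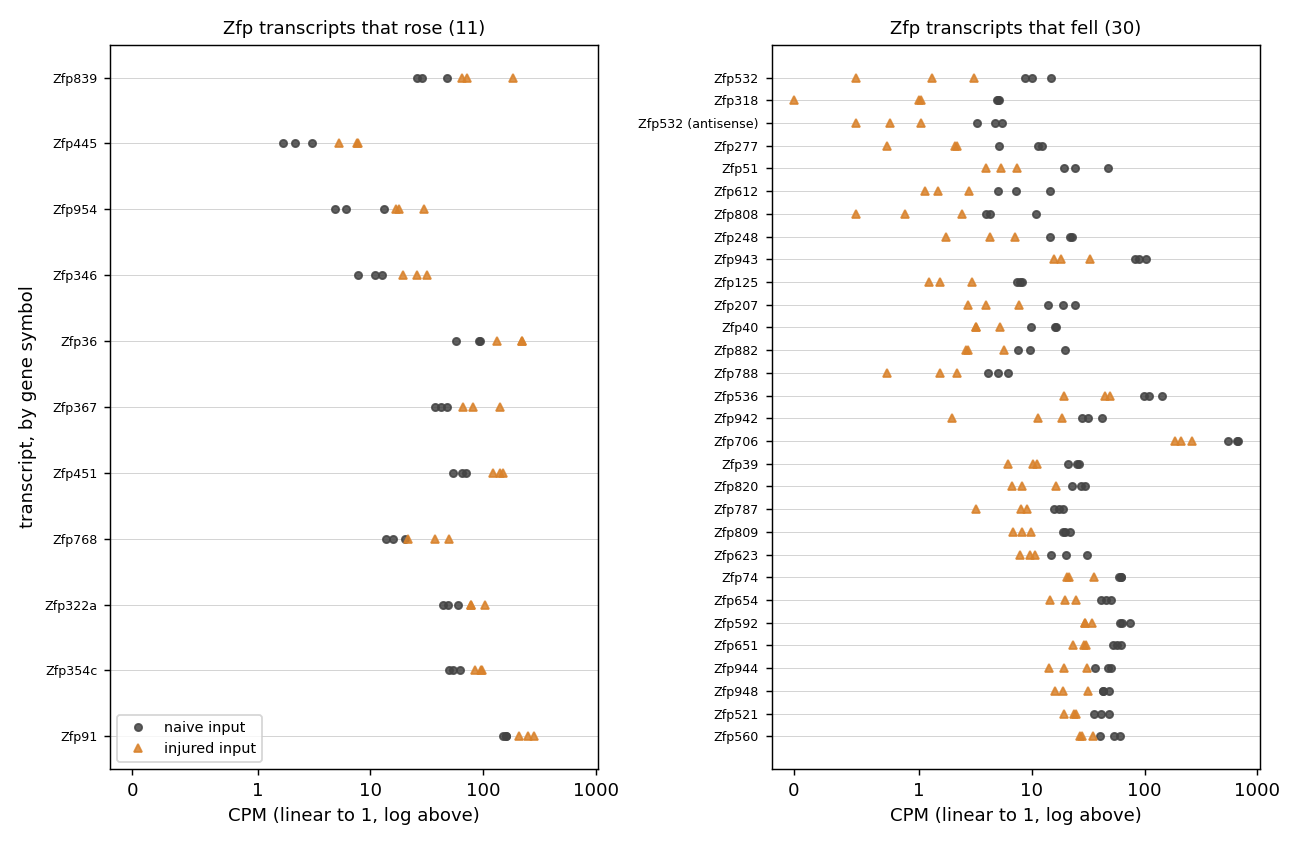
CPM per input library on a log axis for the 11 members that rose and the 30 that fell, with naive and injured libraries as separate points. The naive points of Zfp706 lie between 553 and 669 CPM and its injured points between 184 and 262.

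Some falls were counted for a single transcript form. The labels do not say how reads common to several forms of a gene were assigned, and overlap between forms was not measured. A fall of that form and a different assignment of its reads therefore cannot be told apart. Zfp318, known for its part in processing the IgM and IgD transcript of B cells, fell in its 3936-base form from 5.01, 4.91 and 5.12 to 0, 1.05 and 1.00 CPM (-2.67, SE 0.74, adjusted p = 0.0178), a call lost without injured input 2 or naive input 2 (adjusted p 0.051 and 0.052). Its 13060-base form differed by -0.10 (adjusted p = 0.841). For Zfp207, a spindle and kinetochore protein that binds Bub3, the 2152-base form fell from 24.0, 19.0 and 13.9 to 3.96, 2.74 and 7.73 CPM (-1.96, SE 0.48, adjusted p = 0.00888). Its other 3 listed forms differed by -0.07, 0.42 and -0.51, with adjusted p of 0.951, 0.326 and 0.362. When counts were summed by gene symbol, neither gene passed the test, at -0.23 for Zfp318 and -0.13 for Zfp207.

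By chromosome, the largest number of falls was on chromosome 17. Of 32 tested there, 8 fell, 0 rose and 24 were below 0, with a median of -0.64. All 640 transcripts tested on chromosome 17 had a median of -0.01, with 93 higher and 81 lower (12.7%). Besides Zfp943 and Zfp51, the finger repeats above belong to Zfp40 (16, 16.2 and 9.93 to 3.21, 3.23 and 5.19 CPM), Zfp820, Zfp948, Zfp944 and Zfp942, which fell by 1.84, 1.32, 1.00, 1.04 and 1.61 on the log2 scale and were chosen after their values were seen. On chromosome 7, with 46 tested, 3 rose and 5 fell (median -0.09). On chromosome 13, with 21 tested, 3 rose and 1 fell (median -0.80). On chromosome 5, with 17 tested, 0 passed in either direction, and 10 were below 0.

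**Figure D3:**
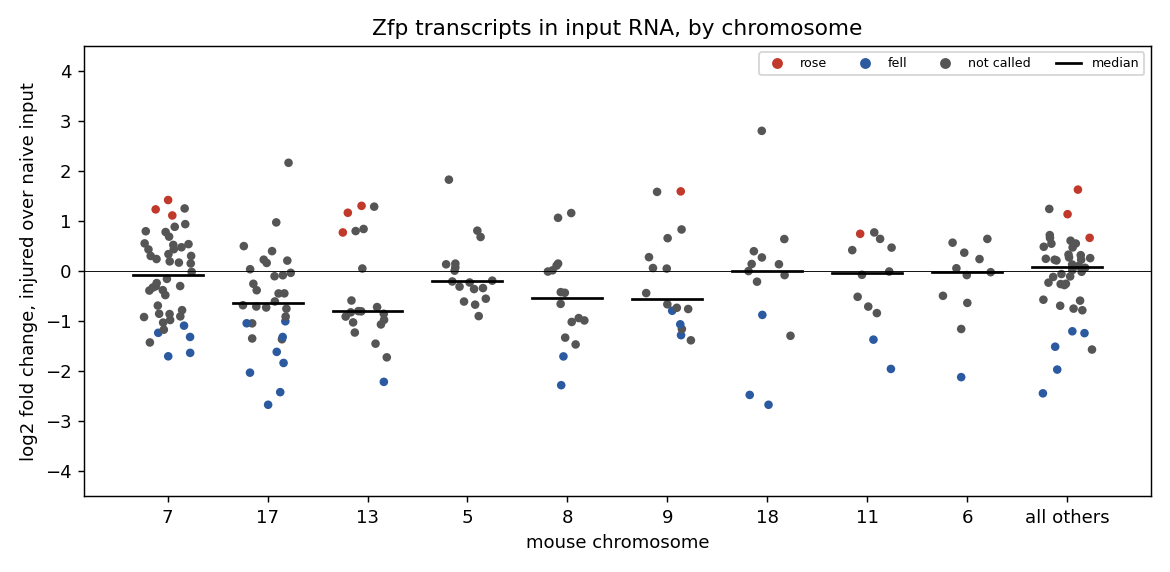
Log2 difference between injured and naive input for each tested Zfp transcript, by chromosome, with the members that passed the test marked. On chromosome 17, 24 of 32 points lie below 0.

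Median input differences were also ordered by the number of fingers. Members with no C2H2 finger found had a median of 0.23 (23 tested, 3 rose and 2 fell), those with 1 to 5 fingers -0.01 (41 tested, 3 and 5), those with 6 to 10 fingers -0.30 (53 tested, 3 and 6), and those with 11 or more -0.52 (90 tested, 2 and 15). Levels were lower in the same order, from 8.48 through 5.93 and 4.87 to 2.57 CPM per kb. Across 207 transcripts, which are not independent replicates and share libraries, Spearman's rho between finger number and log2 difference was -0.19. With GC content it was 0.18 and with GGGG per kb 0.24, over 226. Members without a coding sequence had a median of 0.34, with 0 rising and 2 falling of 19. The background for the counts of each class is that of input, where 14.5% of all transcripts rose and 13.4% fell.

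By role, the CCCH group had 1 riser of 3 (Zfp36). RNA-binding or spliceosome-linked members had 1 riser (Zfp346) and 1 faller (the Zfp207 form) among 11 transcripts, with a median of 0.42. Zfp106 stood at 0.72 (adjusted p = 0.104) and Zfp638 at 0.57 (adjusted p = 0.183), and neither passed. Of the imprint-keeping pair, Zfp445 rose and the listed retained-intron form of Zfp57 was not tested in input. Among adipocyte and mesenchyme factors only Zfp521 could be tested in input, and it fell. General and developmental factors had 5 tested, with Zfp91 rising, Zfp536 falling, and Zfp148, Zfp410 and Zfp462 at 0.32, 0.10 and -0.12.

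The proteins that KRAB factors recruit were measured in the same inputs through 16 of 22 listed genes. Of these, 3 rose and 0 fell, with a median of 0.38. They were Morc3 (0.92, adjusted p = 0.0162) and Atf7ip (0.84, adjusted p = 0.0310), which act with Setdb1 in silencing, and the remodeller Chd4, whose listed transcript was scarce (0.468 ± 0.319 to 2.14 ± 0.291 CPM, 2.18, adjusted p = 0.0413). Trim28 itself stood at 7.31 ± 2.47 in naive and 4.83 ± 1.95 CPM in injured input (-0.57, adjusted p = 0.445). Of the deadenylation and decapping genes with which Zfp36 works, 13 of 16 were tested, 4 rose and 0 fell, with a median of 0.18. Dcp2, the decapping enzyme, rose from 51.8 ± 0.817 to 115 ± 29.8 CPM (1.15, adjusted p = 0.00500), the scarce Edc4 transcript by 2.16, and retained-intron forms of Cnot3 and Pan3 by 2.34 and 1.81. Of the related zinc finger families, Zbtb had 3 rising and 6 falling of 30 (median -0.21), Zkscan and Zscan 1 and 0 of 12 (-0.80), Klf 0 and 2 of 15 (-0.16), and Zc3h 5 and 3 of 23 (0.14). The background for all these counts is that of input above.

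Cell type markers differed widely between the same inputs. Summed CPM of 10 of 10 macrophage markers was 1049 to 1845 in naive and 6667 to 9239 in injured libraries, and that of 5 of 6 markers of dividing cells was 18.5 to 31.8 and 390 to 509. Sums were lower in injured libraries for 6 of 8 markers of myelinating Schwann cells (26121 to 48793, then 4489 to 6899), 5 of 6 of adipocytes (3422 to 4020, then 428 to 522), 4 of 5 of fibroblasts (17462 to 23690, then 9771 to 12970) and 4 of 4 of skeletal muscle (623 to 1057, then 23.6 to 109). Repair Schwann cell markers (5 of 6) summed to 162 to 233 and 179 to 250, with 1 at 0 in the naive group, endothelial ones (4 of 4) to 289 to 431 and 288 to 435, neuronal ones (4 of 5) to 113 to 162 and 96.0 to 114, and lymphocyte ones (2 of 4) to 1.62 to 4.17 and 13.3 to 17.3. Their part in the Zfp differences was not tested. In bulk libraries a smaller number of cells of a type and less RNA per cell cannot be told apart.

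The pulldown libraries came from the same nerves as the inputs, so they do not replicate the input result with other animals, but they are separate library preparations. Of the 30 members that fell in input, 27 of 30 were below 0 between injured and naive PTBP1 IP (median -1.48), 24 of 30 in PTBP1 blocked IP (-1.59), 26 of 27 in nucleolin IP (-1.27) and 21 of 27 in nucleolin blocked IP (-0.97). Of the 11 that rose, 9, 9, 10 and 7 were above 0 in the same 4 comparisons, with medians of 0.75, 0.41, 0.78 and 0.63. Over all members the medians were -0.16, 0, -0.07 and -0.24. By edgeR 0 members passed between injured and naive IP for either antibody, against 0.00688% of all transcripts for PTBP1 and 0.828% for nucleolin, with 8 members each at an unadjusted p under 0.05, where 10.3% and 12.4% of all transcripts stood. DESeq2 called 2 for PTBP1 (0.826% of members with an adjusted p, 4.89% of all transcripts) and 3 for nucleolin (1.49%, all 6.45%).

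Zfp706 and Zfp943 show the values behind these counts. In PTBP1 IP Zfp706 went from 265, 324 and 493 in naive to 64.1, 81.3 and 172 CPM in injured libraries, without overlap (-1.77, adjusted p = 0.294). In nucleolin IP it differed by -1.33, and in the 2 blocked IPs by -2.08 for PTBP1 and -1.45 for nucleolin. Zfp943 went from 118, 125 and 184 to 22.9, 23.4 and 52.1 CPM in nucleolin IP (-2.12, adjusted p = 0.199). With a replicate block 1 member passed between injured and naive nucleolin IP, a fall (0.476%, all transcripts 2.82%). Zfp809, a KRAB factor that silences retroviral DNA through its primer binding site, fell in input (19.7, 19.0 and 21.9 to 8.16, 6.86 and 9.85 CPM; -1.28, adjusted p = 0.0193). It also fell in nucleolin blocked IP (-2.66, adjusted p = 0.044), where 1.55% of all transcripts passed.

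The second comparison asks which Zfp mRNAs came down with PTBP1, as IP over blocked IP. By edgeR 0 of 253 tested members passed in naive and 0 in injured nerve, where 0.0% of all transcripts passed. At an unadjusted p under 0.05 there were 31 in naive nerve (12.3%, all transcripts 13%) and 35 in injured nerve (13.8%, all 12.5%), all of them higher in the IP. Most of all transcripts at that p were higher too, 1673 of 1893 in naive and 1566 of 1815 in injured nerve. DESeq2 called 19 and 20, all higher in the IP, which were 7.85% and 8.26% of members with an adjusted p, where 7.33% and 6.03% of all transcripts were called higher. Of these members, 11 and 12 had at most 3 counts over the 3 blocked libraries. DESeq2 calls shared between naive and injured nerve numbered 3, 15.8% and 15% of each list. In the authors' deposited table, 14 members in naive and 32 in injured nerve had an FDR under 0.05, all higher in the IP. These were 5.41% and 12.4% of the members listed there, and 4.27% and 7.63% of all transcripts in the authors' deposited table were higher at that FDR.

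The median Zfp log2 ratio of IP to blocked IP was 0.45 in naive and 0.23 in injured nerve. Transcripts of similar CPM had 0.09 and -0.02, and all transcripts 0.05 and 0.02. Groups did not overlap for 28 higher and 5 lower members in naive nerve (11.1% and 1.98%, background 9.26% and 4.68%), and for 57 and 11 in injured nerve (22.5% and 4.35%, background 16.6% and 6.31%). These values are given as a description only, because the deposited table selects for them: 112 of 259 members (43.2%) reached the count minimum in an IP group and in no blocked group, against 35.6% of all transcripts, and 65 (25.1%, all 21.3%) through injured IP alone. With library totals the injured median was -0.29, and that of all transcripts -0.49.

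How often Zfp mRNAs were missed differed between PTBP1 libraries. In naive IP libraries 1, 2 and 3, 23.6%, 15.8% and 3.47% of the 259 members had no count, and in naive blocked IP 24.7%, 34.7% and 16.6%. In injured IP the shares were 1.93%, 1.54% and 0.386%, and in injured blocked IP 30.5%, 31.7% and 19.3%. Means were 1.29% ± 0.804 and 27.2% ± 6.82 in injured, and 14.3% ± 10.1 and 25.4% ± 9.09 in naive nerve. The table's minimum fixes most of the injured contrast, so it is given with no test: 234 of 259 members (90.3%) reached 5 counts in all 3 injured IP libraries and could not be at 0 there, against 111 (42.9%) in injured blocked IP. In naive nerve 150 members (57.9%) reached it in the IP and 105 (40.5%) in the blocked IP. Other transcripts of similar CPM, chosen by the same minimum, had 4.15% ± 2.56 and 23.6% ± 6.89 in injured nerve. Zfp transcripts together took 0.653% ± 0.0578 of injured IP and 0.782% ± 0.0419 of injured blocked IP counts (two-sided exact permutation p = 0.1, the smallest 3 against 3 can give). In naive nerve they took 0.84% ± 0.162 and 0.734% ± 0.101 (p = 0.3 by the same permutation test). These are shares of library totals, a scale on which the injured median ratio given above was negative too, while with TMM factors it was positive. The shares are also taken over members selected by the same minimum, so neither permutation p can decide whether IP and blocked IP differ. Library 3 had the fewest missing members in each of the 4 PTBP1 groups.

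**Figure D4:**
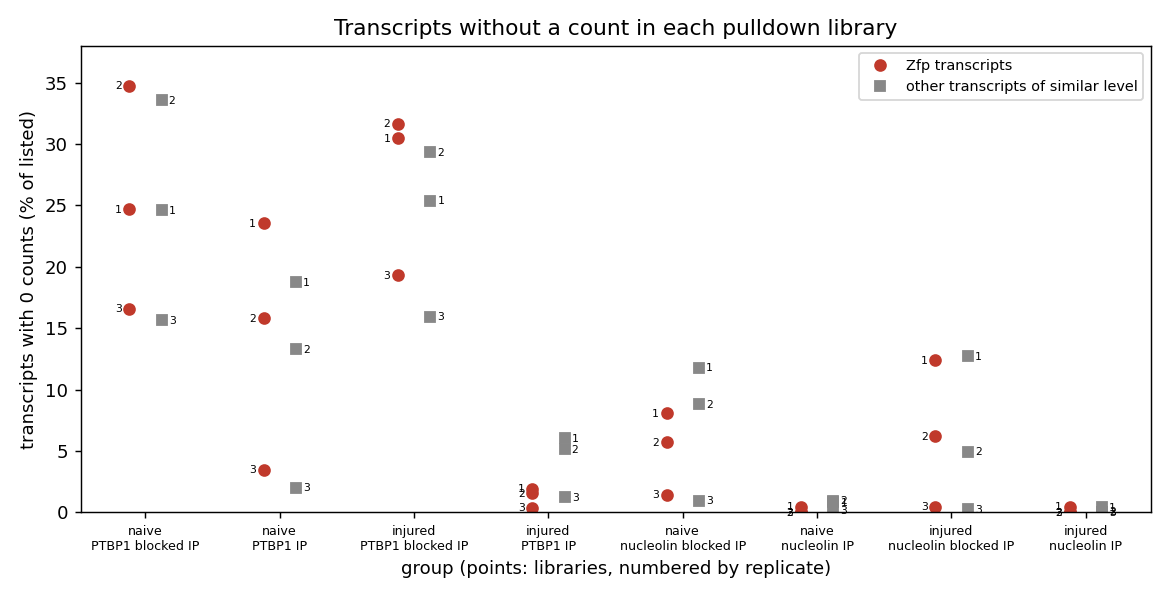
Percentage of Zfp transcripts, and of other transcripts of similar CPM, with no count in each pulldown library, one point per library. Zfp transcripts lie between 0.386% and 1.93% in injured PTBP1 IP and between 19.3% and 31.7% in injured PTBP1 blocked IP.

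The members with the smallest p show what these ratios rest on. In naive PTBP1 IP, the processed transcript of Zfp280d (3062 bases) stood at 48.1, 7.68 and 5.09 CPM and at 0 in all 3 blocked libraries, 833 counts against 0, at least 339-fold higher against a floor of 3 counts over the group (edgeR adjusted p = 0.222). Other Zfp280d forms differed in direction. The 4387-base protein-coding form gave a log2 ratio of -0.47 and the 412-base form -1.22, while the 3919-base and 1767-base forms gave 10.2 and 8.79. Zfp398 was even across IP libraries, at 11.2, 13.6 and 14.6 CPM, against 0.05, 0 and 0.20 (log2 7.14, adjusted p = 0.222). The 616-base processed transcript of Zfp248 stood at 5.09, 5.59 and 1.35 CPM against 0, at least 71.9-fold higher. In injured PTBP1 IP, the 2509-base form of Zfp932, which shares 45.2% of its 50-base words with other genes, stood at 18.2, 36.2 and 7.60 CPM against 0 (at least 279-fold). The other 2 forms of Zfp932 gave log2 ratios of -1.11 and 0.00. The decay-target form of Zfp532 stood at 5.48, 3.39 and 0.955 against 0 (at least 43.5-fold), and Zfp599 at 2.11, 1.69 and 3.55 against 0 (at least 46.5-fold). Blocked libraries were at 0 throughout for 18 members in naive and 22 in injured nerve, of 253 tested. The count minimum admits transcripts through the IP alone, and no share of all transcripts was taken for whole groups. Per blocked library, a mean of 23.2% of all listed transcripts in naive and 23.8% in injured nerve had no count.

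Among the members named as lower in the PTBP1 IP, libraries of a group were uneven for Zfp612 and Zfp729b. Zfp612 in injured nerve stood at 3.20, 1.96 and 0.0382 CPM in the IP and at 189.7, 0 and 1.21 in blocked IP, so that 1 library set the ratio (log2 -5.20, adjusted p = 0.52). Zfp771 was steadier, at 7.17, 7.22 and 17.2 against 77.2, 33.5 and 32.9 CPM, without overlap (-2.18, adjusted p = 0.432). Zfp729b in naive nerve stood at 0.162, 0.629 and 18.4 against 68.9, 107.8 and 30.9 CPM (-3.43, adjusted p = 0.506). None of these passed the test.

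Zfp36 and Zfp36l1, whose mRNAs were far more abundant, gave small ratios in PTBP1 IP over blocked IP. Zfp36 differed by 0.14 (adjusted p = 0.979) in naive and 0.42 (adjusted p = 0.923) in injured nerve. Zfp36l1 differed by 0.45 (adjusted p = 0.842) and 1.15 (adjusted p = 0.386), and the injured value was among the DESeq2 calls, with 17650 counts in the IP and 9630 in the blocked IP. Across 253 members Spearman's rho between mean CPM and log2 ratio was -0.21 in naive and -0.25 in injured nerve. With TCTT per kb it was 0.09 and 0.20, and with CTCTCT per kb 0.21 and 0.18. The values were not particular to PTBP1. For nucleolin IP over blocked IP, across 210 members, they were 0.08 and 0.18 with TCTT and 0.18 and 0.10 with CTCTCT. These are descriptions over transcripts that share libraries and depth.

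Nucleolin gave the third comparison. In IP over blocked IP 0 of 210 members passed by edgeR in either condition (0.0% of all transcripts). At an unadjusted p under 0.05 there were 23 in naive nerve (18 higher and 5 lower, 10.95% against 12% of all) and 9 in injured nerve, all higher (4.29% against 6.49%). Of all transcripts at that p, 985 of 1422 in naive and 641 of 769 in injured nerve were higher. DESeq2 called 12 and 2, all higher (5.85% and 0.976%), where 5.93% and 2.64% of all transcripts were called higher. The authors' deposited table had 7 higher and 1 lower of 217 members in naive nerve (3.23% and 0.461%, all transcripts 5.16% and 0.268%) and 2 higher of 232 in injured nerve (0.862%, all 0.644%) at an FDR under 0.05. Of the 2 injured calls by DESeq2 and the 2 in the authors' deposited table, 0 were shared. Medians were 0.05 and 0.14, with -0.10 and -0.06 for transcripts of similar CPM. Groups did not overlap for 28 higher and 7 lower in naive nerve (13.3% and 3.33%, background 12.3% and 6.28%) and for 26 and 6 in injured nerve (12.4% and 2.86%, background 12% and 6.02%). Few Zfp transcripts were missed: 0.159% ± 0.275 in each IP group, 5.08% ± 3.38 in naive and 6.35% ± 5.95 in injured blocked IP. Members compared had to be listed in both nucleolin tables under the same minimum, so these shares have no test.

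In naive nerve Zfp839 stood at 915, 316 and 127 CPM in nucleolin IP and at 31.4, 15.9 and 49.4 in blocked IP (log2 3.81, adjusted p = 0.105). Zfp882 stood at 47, 21 and 44 against 0.407, 1.36 and 3.93 CPM (4.29, adjusted p = 0.106). Neither overlapped its blocked group. Among lower members, Zfp367 stood at 36.6, 23.8 and 43.2 against 206, 51.2 and 47.6 CPM (-1.56, adjusted p = 0.283). In injured nerve Zfp74 stood at 606, 316 and 119 against 12.1, 66.0 and 35.1 CPM (3.20, adjusted p = 0.212), and Zfp39 at 205, 87.6 and 29.1 against 6.36, 10.9 and 11.6 (3.48, adjusted p = 0.291). Zfp74 and Zfp39 were the DESeq2 calls in injured nerve and were also called in naive nerve. Zfp410, a transcription factor known for activating Chd4, stood at 56.1, 66.5 and 54.8 CPM in injured IP against 145.6, 110.4 and 74.9 in blocked IP, lower in every library (-0.90, adjusted p = 0.820). For Zfp839, Zfp74 and Zfp39, IP library 1 was the highest of its group and library 3 the lowest.

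**Figure D5:**
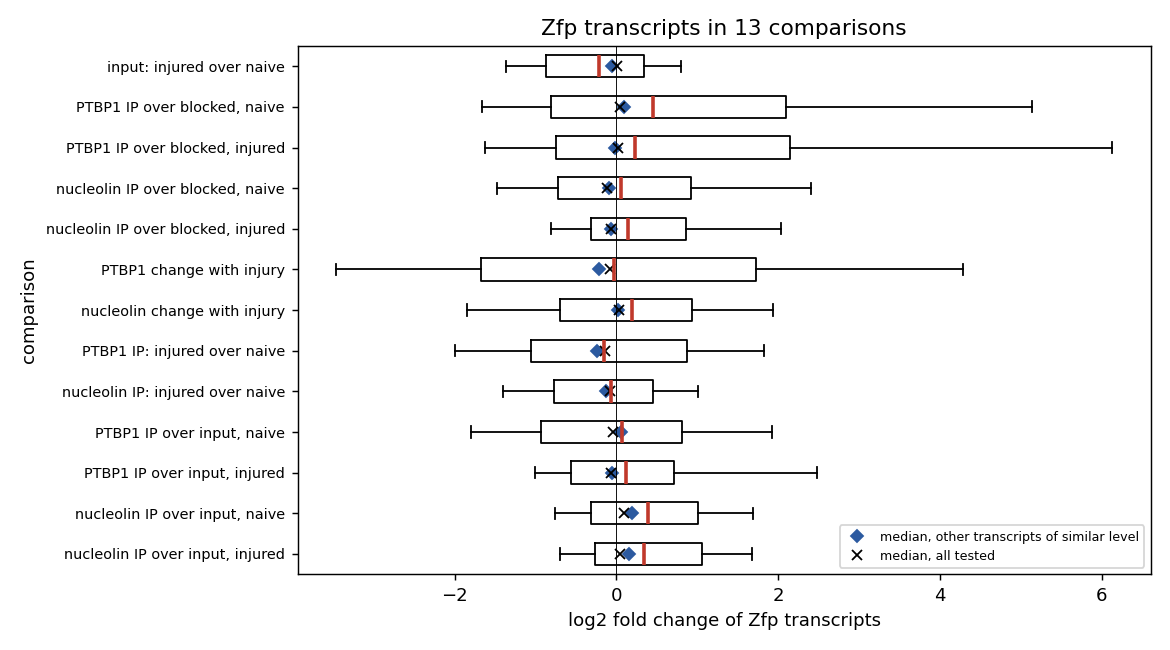
Log2 differences of Zfp transcripts in each comparison, as boxes (quartiles, line at the median) with whiskers from the 10th to the 90th percentile, beside the medians of other transcripts of similar CPM and of all transcripts. The Zfp median is -0.21 for injury in input and 0.45, 0.23, 0.05 and 0.14 for IP over blocked IP (PTBP1 naive and injured, nucleolin naive and injured).

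Whether enrichment itself changed with injury was tested as an interaction. By edgeR 0 members passed for either antibody (0.0% of all transcripts). At an unadjusted p under 0.05 there were 19 for PTBP1 (12 higher and 7 lower, all transcripts 7.89%) and 8 for nucleolin (3 higher and 5 lower, all 2.55%). DESeq2 called 9 for PTBP1, 4 higher and 5 lower (3.73%, all transcripts 3.06%), and 0 for nucleolin (all 0.171%). The smallest p for PTBP1 belonged to Zfp759, Zfp930 and Zfp709 among higher members and Zfp280d, Zfp276 and Zfp3 among lower ones, each with an adjusted p of 0.541. For nucleolin they belonged to forms of Zfp207 (2.91), Zfp583 (4.90) and Zfp53 (3.27) among higher members and of Zfp191 (-4.08), Zfp882 (-3.30) and Zfp329 (-3.32) among lower ones, each with an adjusted p of 1.

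Pulldowns were also set against input. The 3 IP libraries of a group spread widely here. By edgeR 1 member passed in injured PTBP1 IP over input, where 1.02% of all transcripts passed and 0.96% were higher: Zfp369 in its 1580-base form, at 429, 346 and 60.1 CPM in the IP and 13.4, 24.3 and 12.6 in input (4.05, SE 0.89, adjusted p = 0.0375). Its blocked IP was also high, at 236, 63.5 and 55.8 CPM against 391.97, 326 and 62 in the IP on the scale of the PTBP1 fit (1.13, adjusted p = 0.746). The call was lost without any single injured input and without IP library 1 or 2 (adjusted p 0.118 to 0.252). Zfp395 stood at 1906, 913 and 136 CPM in injured PTBP1 IP and at 27.9, 24.9 and 20.2 in input (5.34, adjusted p = 0.096), and its blocked IP held 411, 925 and 57.8 CPM. Zfp937 stood at 221, 214 and 44.7 CPM against 6.11, 12.7 and 8.44 (4.13, adjusted p = 0.053). In naive PTBP1 IP over input 0 members passed (0.218% of all transcripts in either direction).

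In nucleolin IP over input 0 of 205 members passed in naive (1.06% of all) or injured nerve (0.404%). Zfp74 stood at 922, 533 and 218 CPM in naive IP and 75.6, 73.7 and 68.1 in naive input (2.94, adjusted p = 0.072), and in injured nerve the log2 ratio was 3.30 (adjusted p = 0.054). Zfp46 stood at 1502, 712 and 126 against 43.7, 35 and 38.5 CPM in naive nerve. Zfp598, a ubiquitin ligase that acts on collided ribosomes, stood at 84.8, 74.9 and 54.5 against 15.9, 22.4 and 28.6 CPM in injured nerve, the most even of the higher members named (1.67, adjusted p = 0.104). Zfp706, the most abundant member per length, was below input in naive nerve, at 273.5, 349 and 553 against 698, 779 and 741 CPM (-0.92, adjusted p = 0.298), and its injured libraries gave -0.85 (adjusted p = 0.303). In injured PTBP1 IP over input it gave -0.97 (adjusted p = 0.484). With a replicate block 2 members passed in injured PTBP1 IP over input (0.877%, all transcripts 1.3%), 1 in naive (0.488%, all 2.71%) and 4 in injured nucleolin IP over input (1.95%, all 3.61%). When only the 6 libraries compared were fitted, 17 passed in injured PTBP1 IP over input (7.56%, all 7.33%), and 5 in naive (2.46%, all 2.94%) and 17 in injured nucleolin IP over input (8.33%, all 10.5%). The medians over members were 0.07 and 0.12 for PTBP1, against 0.05 and -0.05 for transcripts of similar CPM, and 0.40 and 0.35 for nucleolin, against 0.20 and 0.15. Blocked IP over input gave member medians of -0.20 and -0.04 for PTBP1 and 0.25 and 0.17 for nucleolin.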

How the data were processed

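RNA-seq reads had been summed by the authors into raw counts for each Ensembl transcript, and these counts were analysed. CASAVA 1.8.2, edgeR and the builds mm10 and GRCm38 are named in the submitters' processing notes. No source used here names the aligner, the counter, the use of strand or the annotation release. The authors' deposited tables also give log2 fold changes and p-values with FDR, copied for comparison only, and 114 further per-sample columns were not used. In some tables blocked library 3 carries other letters than its title, and was matched by condition, protein and number.

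Groups came from the sample titles. Library totals ranged from 7536033 to 22919174 counts, and replicates always differed by more than sampling noise (lowest chi-square over its degrees of freedom 57.9). Differences were tested with edgeR 4.0.16 (R 4.3.3): quasi-likelihood, TMM, filterByExpr, two-sided, Benjamini-Hochberg over all transcripts, adjusted p under 0.05. The 12 libraries of an antibody shared a fit, as did those with the 6 inputs (18), and the 6 inputs alone. These fits had no term for replicate, because the labels do not say what a shared number means, so shared nerves were not modelled. CPM were computed with TMM-scaled totals, and transcripts of similar level lay between the 10th and 90th percentile of the members' mean CPM. Alternatives were DESeq2 1.42.0, RLE factors, library totals, no filter, a replicate block, only the libraries compared, all transcripts of a nucleolin table, leaving out Yam1, Lars2 and Gm15564, sums per symbol, and leaving out each library. In the 11 comparisons checked, deviations of same-numbered libraries correlated at 0.0343 to 0.531. Every pair exceeded 0.1 for injured PTBP1 IP and blocked IP, nucleolin IP injured and naive, and injured nucleolin IP and input. Input is a fraction of each sample by the series' design text.

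Named were the 10 highest members per length, up to 10 rising and 10 falling per comparison, the 3 smallest p where under 3 passed, the role lists, and members called in 2 comparisons. Members and lists were chosen with earlier results of these data known. GENCODE M21 (GRCm38) held 19991 of 20440 identifiers. C2H2 fingers were counted in translated GENCODE coding sequences, not in RefSeq proteins as planned, and promoters came from RefSeq GRCm38.p6.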

Additional observations from a re-analysis of the deposited data

How the results depend on the processing

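For input, 41 members passed by edgeR, 11 rising and 30 falling. RLE factors, no filter, and removal of 3 read-rich genes each called the same 41. With a replicate block 46 passed, with DESeq2 53 (16 and 37), with sums per symbol 39 and with library totals 17, all falling. Leaving out each library gave 18 to 48 calls: 18 without naive input 2, 19 without injured input 2, 26 without naive input 3 and 48 without injured input 3. Of 26 named calls, library totals kept 13, sums per symbol 24, and each left-out library 13 to 23. No named member changed sign. For IP over blocked IP, 0 passed by edgeR, while DESeq2 called 19 (PTBP1 naive), 20 (PTBP1 injured), 12 (nucleolin naive) and 2 (nucleolin injured). For the change of PTBP1 enrichment DESeq2 called 9, and for injured against naive IP 2 (PTBP1) and 3 (nucleolin). For nucleolin IP injured against naive, the replicate block called 1, as did a fit of only the libraries compared. For IP over input, the calls of 0 (PTBP1 naive), 1 (PTBP1 injured), 0 (nucleolin naive) and 0 (nucleolin injured) became 8, 12, 5 and 13 with DESeq2 (3.88%, 6.0%, 2.58% and 7.78% of members with an adjusted p, against 3.65%, 6.68%, 6.09% and 9.07% of all transcripts). With the replicate block they were 0, 2, 1 and 4, and with library totals 0, 0, 1 and 3. RLE factors gave 2 for PTBP1 injured, and only the libraries compared gave 17 for PTBP1 injured, 5 for nucleolin naive and 17 for nucleolin injured. Leaving out each library gave 0 to 5 for PTBP1 naive, 0 to 4 for PTBP1 injured, 0 to 7 for nucleolin naive and 0 to 3 for nucleolin injured, the highest each time without IP library 3. It gave 0 to 2 for nucleolin naive IP over blocked IP (2 without blocked library 3) and 0 for all other comparisons. The replicate block changed no other count by more than 1.5 times. For fits that left out a library, no share of all transcripts called is given. The same holds for input under DESeq2, the replicate block and sums per symbol, and for IP over input under library totals and RLE factors. Those counts show how far the member calls moved and cannot be read against a background. The causes of these shifts were not tested. Depth limits members at 0 in a library, and transcripts below the minimum of the deposited tables were not analysed here.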
